A study of Mus musculus with 2 samples.

Results

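EHMT2 (G9a), a histone methyltransferase that deposits H3K9me2, was mapped by ChIP-exo, and the peaks described here are its narrow repeat peaks in gene deserts. A peak entered the set when it lay on chromosomes 1 to 19 or X, was under 1000 bp wide and at least 50% soft-masked, and had its summit outside every protein-coding gene record. The summit also had to be at least 200 kb from the nearest protein-coding transcription start site (TSS) and outside the window from 2.5 kb upstream to 0.5 kb downstream of the TSS of any gene record. Soft-masked bases are the lower-case, repeat-derived bases of the GRCm38 (mm10) assembly, and they carry no element names. The rule kept 3115 of 12554 peaks, or 24.8% (95% Wilson interval 24.1 to 25.6%). Together the members covered 1.05 Mb. The study states a larger number of ChIP-exo peaks than the deposited list holds, for a reason not known here, and all shares refer to the deposited list.

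The mouse embryonic stem cells (mESCs) were an EHMT2-dTAG-mcherry line of BL6/129 hybrid origin, grown on feeders in FBS/LIF. Both alleles of Ehmt2 ended in an FKBP12-derived degron, HA tags and a mCherry reporter, and all cells received the solvent DMSO for 24 h, so that tagged EHMT2 was present. The only group comprised 2 replicate libraries of an anti-HA ChIP-exo, in which an exonuclease trims crosslinked DNA up to the bound protein. The replicates were merged before peaks were called and no control library was used in calling, so that each member has 1 pooled value and no replicate error. Intervals below are 95% intervals and cover counting error only. Neither a control antibody nor EHMT2-depleted cells were part of the data analysed here, so what the HA antibody recovers without EHMT2 was not tested here. The study itself ran HA ChIP-seq, a different assay, 24 h after depletion and reports reduced signal at its EHMT2 peaks. It also reports that ChIP-exo and ChIP-seq shared only a minority of these peaks.

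Gene deserts are long stretches without protein-coding genes, and in the mouse much of their sequence derives from transposable elements. Young LINE-1 elements are among the most abundant of these: an intact copy starts with a promoter built of tandem units called monomers, followed by a short and a long reading frame, of which the long one encodes an endonuclease and a reverse transcriptase whose catalytic centre contains the residues YADD or FADD. H3K9 methylation is a repressive mark that is found over many such repeats. EHMT2 has no DNA-binding domain of its own and depends on partner proteins for its placement.

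Most sequences at the summits fell into a few families, and the strongest member of each of the 5 largest is printed as an example. These are extremes and not typical members, and reads of repeated sequence cannot be assigned to the printed locus alone. A family joins peaks whose sequences, taken 150 bp to either side of the summit, share an alignment of 150 bp or longer with identity of no less than 80%, directly or through other peaks. Each line below gives 100 bp to either side of a summit in GRCm38, 5′ to 3′, with the 50 bp at the summit in capitals. The example of the largest, family 1, lies at chr5:80457407-80457607 and is written from the minus strand, in the direction of a long reading frame 1341 bp away. The others are written from the plus strand and lie at chr16:60993035-60993235, chr13:16430699-16430899, chr6:26014379-26014579 and chr19:35426668-35426868.
Family 1: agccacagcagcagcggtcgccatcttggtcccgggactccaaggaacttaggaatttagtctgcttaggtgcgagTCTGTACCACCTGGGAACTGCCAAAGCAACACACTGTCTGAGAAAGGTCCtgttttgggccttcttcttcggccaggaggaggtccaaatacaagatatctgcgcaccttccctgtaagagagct
Family 2: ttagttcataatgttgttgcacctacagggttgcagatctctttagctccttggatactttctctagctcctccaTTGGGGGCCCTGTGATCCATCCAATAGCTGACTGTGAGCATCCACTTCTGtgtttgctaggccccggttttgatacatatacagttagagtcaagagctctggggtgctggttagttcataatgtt
Family 3: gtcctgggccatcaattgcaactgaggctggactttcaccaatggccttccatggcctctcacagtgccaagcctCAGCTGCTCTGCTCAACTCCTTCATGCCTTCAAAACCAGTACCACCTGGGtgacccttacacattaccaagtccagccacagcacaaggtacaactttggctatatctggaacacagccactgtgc
Family 4: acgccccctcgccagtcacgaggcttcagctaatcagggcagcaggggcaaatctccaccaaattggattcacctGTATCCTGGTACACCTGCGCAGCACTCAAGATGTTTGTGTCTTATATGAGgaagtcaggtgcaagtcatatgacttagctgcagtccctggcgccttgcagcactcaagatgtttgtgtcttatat
Family 5: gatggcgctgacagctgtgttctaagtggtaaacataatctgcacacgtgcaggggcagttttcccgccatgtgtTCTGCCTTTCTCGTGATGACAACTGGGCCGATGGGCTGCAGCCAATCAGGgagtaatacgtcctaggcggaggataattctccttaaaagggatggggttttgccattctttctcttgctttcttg
In the family 1 example the capitals occur 366 times in the assembly as an exact copy, and the fold over local background was 19.9 with 66 fragments. The summit sequence of the family 2 example occurs 4731 times, with a fold of 9.58 and 12 fragments. The examples of families 3, 4 and 5 had folds of 8.46, 9.09 and 6.75 and rested on 11, 11 and 8 fragments. The largest family therefore held the strongest of these 5 summits by fold and by fragments.

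Tandem units at the summits are shown by the strongest member with a spacing of 212 bp and the strongest with a spacing of 208 bp among those of 90% identity or more. For each, 2 consecutive units meeting at the summit are printed, and capitals mark the positions at which the pair differ. The 212 bp units span chr3:43557965-43558176 and chr3:43558177-43558388 on the plus strand. The 208 bp units, written from the minus strand in the direction of a reading frame 1694 bp away, span chr5:50855234-50855441 and chr5:50855026-50855233.
212 bp, first unit: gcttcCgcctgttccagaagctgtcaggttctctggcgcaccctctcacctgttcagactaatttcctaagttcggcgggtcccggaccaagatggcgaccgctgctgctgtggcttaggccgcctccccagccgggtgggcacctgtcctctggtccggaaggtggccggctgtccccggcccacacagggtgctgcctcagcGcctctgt
212 bp, second unit: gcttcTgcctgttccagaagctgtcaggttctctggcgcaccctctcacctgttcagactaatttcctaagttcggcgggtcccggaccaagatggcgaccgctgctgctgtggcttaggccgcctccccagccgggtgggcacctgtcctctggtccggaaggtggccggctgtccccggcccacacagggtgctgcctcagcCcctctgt
208 bp, first unit: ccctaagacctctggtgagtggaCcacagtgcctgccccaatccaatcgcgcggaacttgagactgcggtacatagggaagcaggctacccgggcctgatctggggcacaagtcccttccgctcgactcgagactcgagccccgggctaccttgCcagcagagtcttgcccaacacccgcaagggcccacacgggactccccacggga
208 bp, second unit: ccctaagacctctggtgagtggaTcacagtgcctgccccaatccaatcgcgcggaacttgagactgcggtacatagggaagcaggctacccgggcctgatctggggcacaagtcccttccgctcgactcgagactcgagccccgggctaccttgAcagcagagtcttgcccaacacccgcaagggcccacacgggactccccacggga
In each pair the units differed at 2 positions, so that consecutive units were 99.06% and 99.04% identical. The 212 bp units had a GC content of 65.6% and 65.1%, and the 208 bp units 63.9% and 63.0%. The 212 bp member lies between D3Ertd751e and Pcdh10, a protocadherin gene, and had a fold of 20.8 with 64 fragments. The 208 bp member lies between Adgra3, an adhesion receptor gene, and Ppargc1a, a transcriptional coactivator gene, and had a fold of 13.5 with 33 fragments.

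Most members were modest peaks on a low background. The fold, the authors' ratio of summit fragments to local background, ranged from 2.94 to 20.8 with a median of 5.30 (interval 5.23 to 5.30, quartiles 4.44 and 7.21). The fragments stacked at the summit, recovered from the deposited fold and p-value, ranged from 4 to 71 with a median of 9 (quartiles 6 and 14). The median background was 0.875 fragments. The median width was 221 bp, and the shortest and widest members measured 123 and 998 bp.

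Distance from genes came with little difference in strength. Narrow repeat peaks in intergenic sequence within 200 kb of a protein-coding TSS (3691 peaks, called near genes here) had a median fold of 5.18 (5.13 to 5.23), and those inside protein-coding genes (2268) had 5.28 (5.20 to 5.30). At a q-value of 0.001 or lower, 2128 members remained, or 68.3% (66.7 to 69.9%), against 65.4% of all peaks in the list. The share was 66.6% near genes and 69.5% inside genes. The difference between members and peaks near genes was 1.67 percentage points with an interval from -0.57 to 3.89, which includes 0. Among the other peaks of the same deserts, 281 broad ones (1000 bp or wider) had a median fold of 10.6 and 47 fragments. The 211 repeat-poor ones (under 50% soft-masked) had a median fold of 4.48 and 5 fragments, so that members lay between these classes. Width entered the rule and grows with signal, which makes the contrast with broad peaks a description of the limit.

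**Figure D1:**
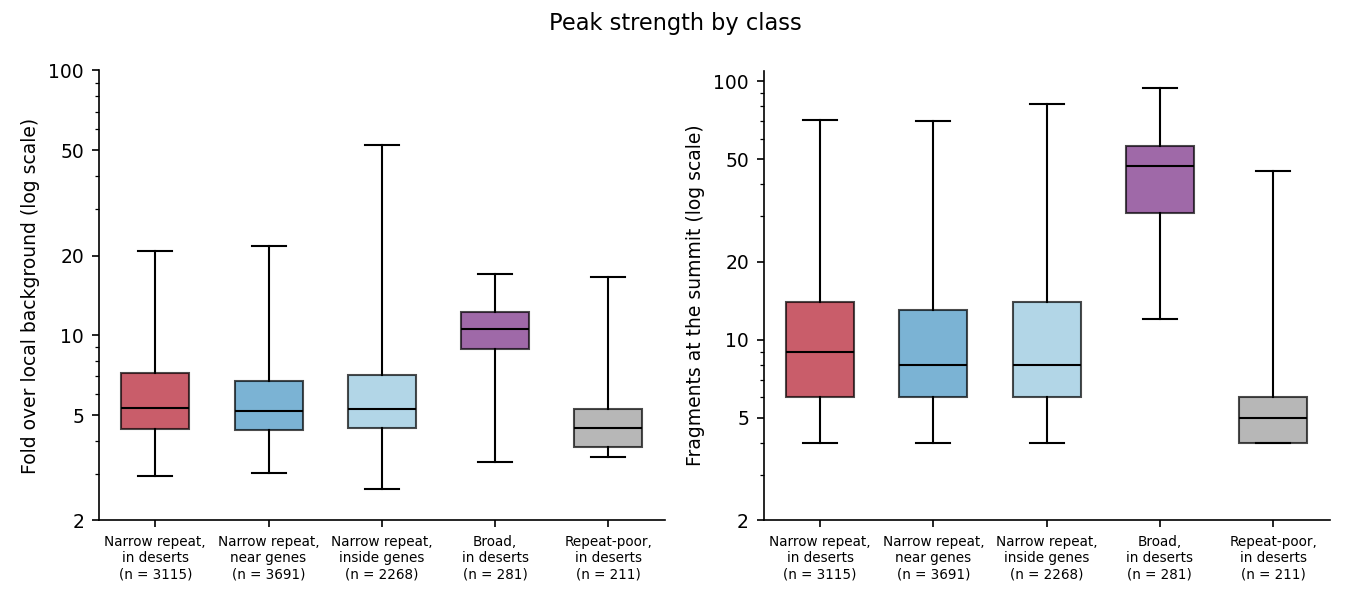
Fold over local background (left, log axis) and fragments at the summit (right, log axis) for each class of peaks in the pooled list. Boxes span the quartiles with the median as a line, and whiskers reach the lowest and highest peak. Members, narrow repeat peaks near genes and those inside genes have medians of 5.30, 5.18 and 5.28, while broad peaks in deserts sit at 10.6 and repeat-poor peaks at 4.48.

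Most summits lay on sequence that the genome holds more than once. The 50 bp at the summit had at least 1 further exact copy in 2951 members, or 94.7% (93.9 to 95.5%), and the median number of copies was 829. Among 621258 soft-masked windows tiled over the same deserts, 36.5% of centres were repeated and the median was 1 copy. Near genes 91.95% of narrow repeat peaks were repeated and inside genes 88.4%, and the differences to the members were 2.78 (1.597 to 3.96) and 6.29 (4.78 to 7.85) percentage points. The aligner wrote each read with several equally good sites once, at a site drawn at random, so that for a repeated summit the locus and its fragment number cannot be told apart from those of its exact copies.

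Strength was higher where the summit was more repeated. The 164 members with a unique summit had a median fold of 4.54 (4.48 to 4.67) and 5 fragments. With 2 to 10 copies (168 members) the median fold was 4.60, with 11 to 100 copies (362) it was 5.12, and with more than 100 and up to 1000 copies (1015) it was 5.30. The 1406 members with more than 1000 copies, or 45.1% of all, had a median fold of 5.500 (5.36 to 5.67) and 10 fragments. The lowest and the highest of these classes therefore did not share an interval, while neighbouring classes differed by less than 0.6 in fold. Along the same classes the share of members in the largest family went from 26.2% to 82.3%, and its part in the rise was not tested.

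A single linked family made up most of the set. Because peaks are also joined through other peaks, a family need not be a single kind of sequence. Away from long reading frames, the mean GC content in this family was 63.3% in 200 members with a tandem unit at the summit. It was 47.4% in the 922 without one. The largest family held 2066 members, or 66.3% (64.6 to 68.0%), and 12.9% were in the second (401 members). The third, the fourth and the fifth held 96, 92 and 80 members, and the 5 together covered 87.8%. Another 285 members belonged to smaller families and 95, or 3.05%, to none. The largest family was less frequent outside deserts: it held 56.3% of narrow repeat peaks near genes and 50.7% of those inside genes. The differences were 10.0 (7.68 to 12.3) and 15.6 (12.9 to 18.2) percentage points. Near genes the share was 49.9% within 50 kb of a TSS and 61.5% from 50 to 200 kb. In the desert bins from 200, 300, 500 and 1000 kb it was 66.3, 66.3, 64.0 and 71.2%. The share at 50 to 200 kb was thus nearer to that of the deserts than to that within 50 kb. Correspondingly, members without a family were rarer than near genes, where 6.23% had none, with a difference of -3.18 points (-4.17 to -2.19). The second family did not differ by its interval, with 11.9% near genes and a difference of 0.93 points (-0.64 to 2.51).

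The families differed in strength and composition. Members of the largest family had a median fold of 5.87 (5.74 to 6.05), 11 fragments, a GC content of 54.1% ± 10.8 (SD over members) at the summit, and 80.01% of them passed a q-value of 0.001. Members of the second family had a median fold of 4.54 (4.52 to 4.54), 5 fragments and a GC content of 43.5% ± 4.54, and 39.7% of them passed. The third, the fourth and the fifth family had median folds of 4.58, 4.84 and 4.49, all below the interval of the largest. CpG dinucleotides were frequent in the largest (3.49 per 100 bp), the fourth (2.17) and the fifth family (2.25), and scarce in the second (0.76) and the third (0.54). The largest family had a median fold of 5.95 (5.83 to 6.06) near genes, which overlaps with the interval of the members. Inside genes its median fold was higher, at 6.38 (6.12 to 6.76) with 13 fragments, and the intervals did not overlap.

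Many members stood just upstream of long reading frames. Stretches of at least 1000 codons without a stop, outside annotated coding sequence, were located on both strands, and 951 members, or 30.5% (28.9 to 32.2%), had their summit in the 3 kb upstream of one. The share was 28.5% near genes, with a difference of 2.03 points (-0.14 to 4.21) that includes 0, 29.6% inside genes and 27.1% of all peaks. Among members under 500 bp wide it was 16.92%. Of the 1037 members that lay outside a frame and within 8 kb of one, 94.4% (92.8 to 95.6%) were on its upstream side. A further 47 members lay within a frame. The 951 upstream members belonged to 834 frames, and 97.8% of these members (930) stood before a frame that encodes YADD or FADD. Counted per frame, 84.2% of all 1761 desert frames of this length encode YADD or FADD, with or without a peak. Of the upstream members, 944 were of the largest family, while 1 was of the second and 0 were of the third to the fifth.

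The position upstream of the frame was narrow and came in steps. The median distance from summit to frame was 1552 bp (quartiles 1333 and 1751 bp), and 34.6% of upstream members lay between 1500 and 1750 bp. In steps of 50 bp, the highest counts were at 1700 to 1750 bp (96 members), 1750 to 1800 bp (81), 1500 to 1550 bp (80) and 1300 to 1350 bp (80), with a smaller group of 30 at 950 to 1000 bp. Narrow repeat peaks near genes stood at the same places, with 81, 99, 92, 93 and 38 peaks in these steps. In both classes the intervening steps held fewer peaks, 29 members and 31 peaks near genes at 1400 to 1450 bp for example.

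**Figure D2:**
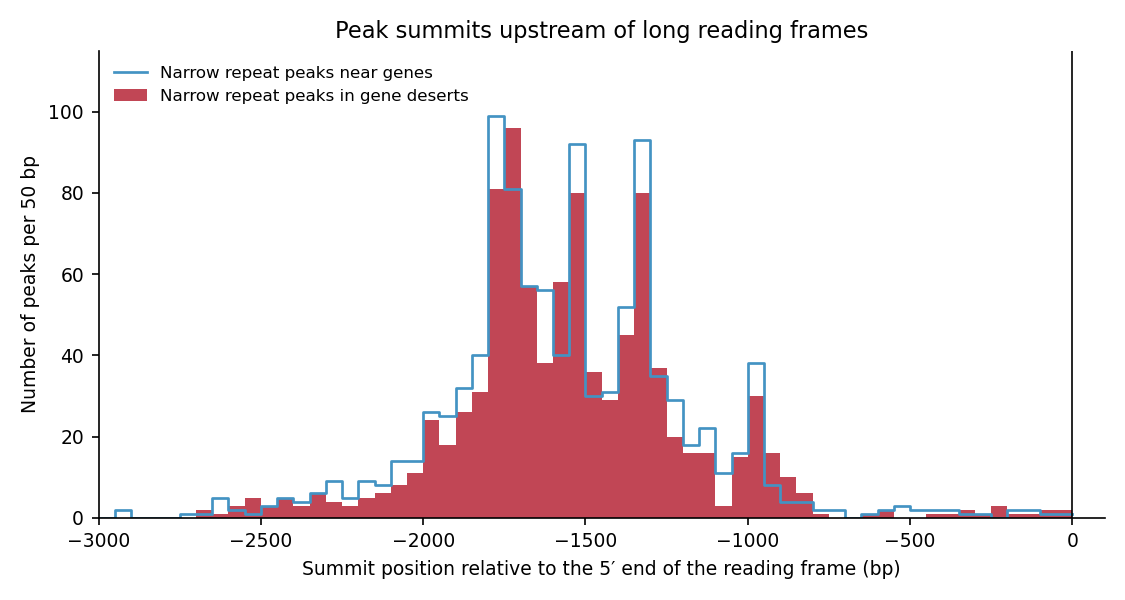
Number of summits per 50 bp against their distance upstream of the 5′ end of the nearest long reading frame, in bp, for 951 members (bars) and 1052 narrow repeat peaks near genes (line). Both classes crowd between 1250 and 2000 bp upstream, with separate maxima near 1750, 1500 and 1300 bp, and few summits lie within 750 bp of the frame.

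Strength changed with this position. Members 1500 to 1750 bp upstream of the frame had a median fold of 9.42 (9.01 to 9.98) and 25 fragments, and those at 1750 to 2000 bp had 9.53 (8.87 to 10.0). At 1250 to 1500 bp the median fold was 7.03 (6.39 to 7.77), and at 1000 to 1250 bp it was 4.70 (4.31 to 5.11). Members less than 1000 bp from the frame were the weakest, with 4.30 (4.03 to 4.68). Base composition moved with the position, from a GC content of 41.6% ± 5.73 below 1000 bp to 63.8% ± 3.05 at 1500 to 1750 bp, and its part in the difference was not tested. All upstream members together had a median fold of 7.95 (7.56 to 8.27) and 18 fragments, against 4.87 (4.81 to 4.96) and 7 fragments for the other members.

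Viewed from the frames, most long frames in deserts carried a peak. Gene deserts held 1761 such frames, and 1064 of them, or 60.4% (58.1 to 62.7%), had a peak of any width in the 3 kb upstream. Near genes the share was 52.2% (50.1 to 54.2%) of 2322 frames and inside genes 56.6% (54.0 to 59.1%) of 1419. The share differed with the length of the frame and was highest at 1300 to 1349 codons. Of the 1054 desert frames of 1300 to 1349 codons, 78.5% (75.9 to 80.8%) had a peak and 623 had a member, and 98.9% of these frames encode YADD or FADD. Frames of 1200 to 1299 codons had a peak in 55.0% (46.7 to 63.0%) of 140 cases, and frames of 1000 to 1199 codons in 27.9% (24.3 to 31.8%) of 552. Only 55.1% of this shortest class encode YADD or FADD. Among the longest frames, of 1350 codons or more, 6 of 15 in deserts (40%, 19.8 to 64.3%), 7 of 45 near genes and 1 of 24 inside genes had a peak. At 1300 to 1349 codons the shares near genes (75.1%, 72.6 to 77.5%) and inside genes (79.2%, 76.2 to 81.8%) had intervals that overlap with that of the deserts. With all lengths pooled, deserts also held more frames than the surroundings of genes, 3.13 per Mb (2.98 to 3.28) against 2.695 (2.59 to 2.81). This does not hold for each length: frames of 1350 codons or more numbered 15 in deserts and 45 near genes. Over the pooled lengths a frame in deserts had a peak more often, 60.4% against 52.2%, while at 1300 to 1349 codons the intervals overlapped. Frames of 1300 to 1349 codons were 1054 of 1761 in deserts and 1215 of 2322 near genes. The part of this mix of lengths in the pooled difference was not tested.

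**Figure D3:**
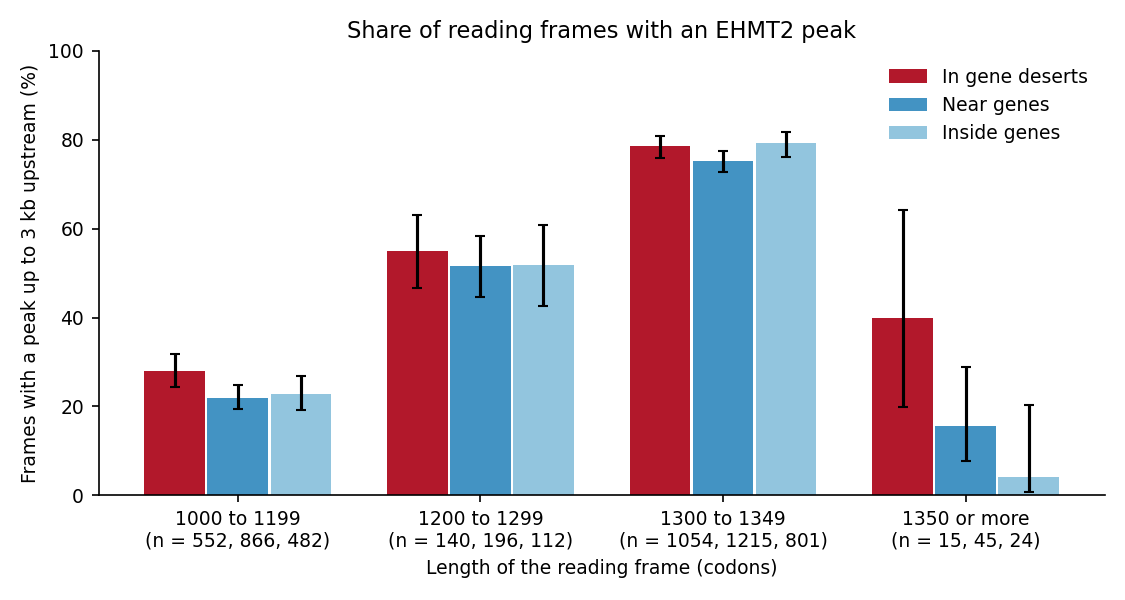
Share of long reading frames with an EHMT2 peak in the 3 kb upstream, in percent, by frame length and by place of the frame, with the number of frames in deserts, near genes and inside genes below each length. Bars are shares and lines are 95% Wilson intervals. At 1300 to 1349 codons the 3 bars stand at 78.5, 75.1 and 79.2%, and at 1000 to 1199 codons at 27.9, 21.9 and 22.8%. The few frames of 1350 codons or more had a peak less often than those of 1300 to 1349 codons.

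Members with a tandem unit were stronger in the median than those without one. Within 300 bp of the summit, 582 members, or 18.7% (17.4 to 20.1%), matched themselves at a fixed spacing with at least 70% identity. The share was 18.7% near genes as well, with a difference of -0.04 points (-1.89 to 1.83). Inside genes it was 21.3%, so that members were lower by a difference of -2.61 points (-4.80 to -0.45), and over all peaks it was 24.0%. The best spacing was 208 bp in 191 members, 212 bp in 103 and 214 bp in 77, and 549 of the 582 had a unit between 200 and 216 bp when a doubled spacing was halved. Tandem members had a median fold of 8.66 (8.27 to 8.92) and 20 fragments, and the others 4.97 (4.90 to 5.05) and 8 fragments. When the window reached 1000 bp to either side, only 13 members (0.417%) kept 70% identity. A single fixed spacing is scored over the whole window, so the length of the repeated stretch was not measured. Among the broad desert peaks, 95.02% were tandem within 300 bp of the summit, and 100% belonged to the largest family.

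The length of the unit went along with median strength. Members with units of 210 to 216 bp (236) had a median fold of 10.99 (10.2 to 11.6) and 37 fragments, with quartiles of 14.8 and 49.2 fragments. Units of 207 to 209 bp (213 members) had a median fold of 8.58 (8.25 to 8.88) and 20 fragments, and units of 200 to 206 bp (100 members) had 7.34 (6.96 to 7.90) and 16 fragments. The intervals of these medians did not overlap, although single members of each length reached folds over 13. The lower quartiles did not follow this order. They were 14.8 fragments for 210 to 216 bp, 16 for 207 to 209 bp and 12 for 200 to 206 bp. Mean GC contents were close to each other, at 64.5%, 62.8% and 65.1%. Of the members with these unit lengths, 66.5%, 65.7% and 56.0% stood upstream of a long frame. Median distances to the frame were 1750, 1734 and 1838 bp.

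**Figure D4:**
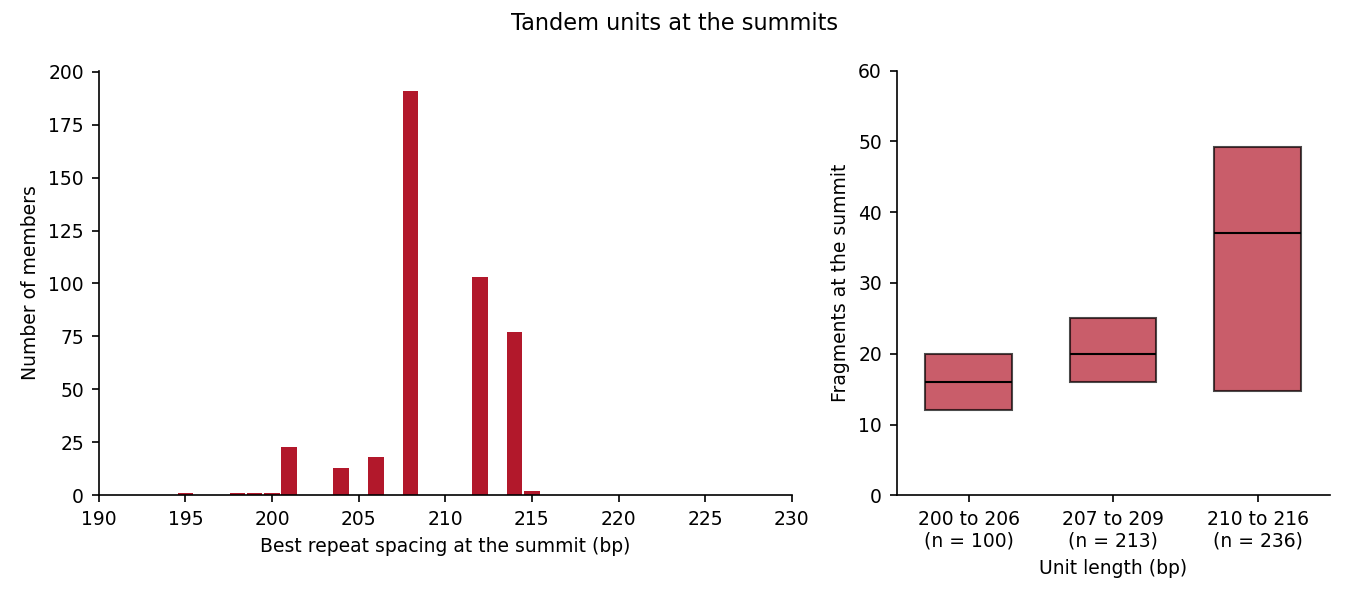
Left, number of members by the spacing, in bp, at which the sequence within 300 bp of the summit best matches itself, shown for spacings of 190 to 230 bp. Right, fragments at the summit by unit length, with boxes from the lower to the upper quartile and the median as a line. Spacings of 208, 212 and 214 bp dominate, and the median rises from 16 to 20 and 37 fragments with unit length.

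Upstream of a frame, members with a tandem unit (356) had a median fold of 9.36 and 23.5 fragments, and members without one (595) had 6.15 and 13. The largest family also had members away from any long frame. There, 200 with a tandem unit had a median fold of 7.63 (7.20 to 8.20), and 922 without one had 5.03 (4.93 to 5.11). Those 922 members were also lower in GC content (47.4% ± 10.2) and narrower (median 199 bp) than the 944 of the family upstream of a frame (58.8% ± 8.17 and 576 bp). The 200 with a tandem unit had a GC content of 63.3% ± 3.07 and a median width of 519 bp. A tandem unit at the summit thus went with a higher fold both beside a frame and away from one. Beside a frame it also went with position: 1 of 227 members at 1250 to 1500 bp was tandem, and 168 of 329 at 1500 to 1750 bp. The parts of position, GC content and width in the difference were not tested.

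Summits were richer in G and C than the repeats around them. Over 100 bp to either side of the summit the GC content of members was 51.2% ± 10.4 (SD, n = 3115), against 40.8% ± 7.37 in the soft-masked windows of the same deserts. CpG dinucleotides, the site of DNA methylation in mammals, numbered 2.76 ± 2.42 per 100 bp in members and 0.67 ± 0.93 in the windows. Narrow repeat peaks near genes had 50.9% ± 10.0 and 2.65 ± 2.40, so that members resembled them and not the desert background. Mean GC contents of the 5 largest families ran from 43.5% to 54.1%.

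Short words recurred at the summits, and the 3 most frequent of those kept occur in the printed tandem units. Words of a very short period, and words that largely overlapped one already taken, were left out. The most frequent 12 bp word kept within 50 bp of the summit was CCAGAAGCTGTC. It was found on either strand in 318 members (10.2%) and in 0.181% of soft-masked desert windows of the same length. The next, AGAGGTCTTAGG and AGGCAGCACCCT, were found in 308 (9.89%) and 276 members (8.86%), and in 0.24% and 0.139% of windows. Narrow repeat peaks near genes held the 3 words in 7.34%, 9.97% and 6.18% of cases, so that the second word was about as frequent there. These words were picked from the members, so their frequency there is a description; every member that held one was of the largest family. The printed 212 bp units hold the first and the third word, and the printed 208 bp units hold the second. Members with the third word had a median fold of 11.8 (11.6 to 12.2), members with the first 10.99 (10.5 to 11.3) and members with the second 7.05 (6.71 to 7.39). The core of the YY1 motif, AANATGGC, was searched as well because YY1 is a zinc finger factor with known sites in LINE-1 promoters. It occurred on either strand in 184 members (5.91%, 5.13 to 6.79%), in 6.48% (5.73 to 7.32%) of narrow repeat peaks near genes and in 3.44% of windows of that length. Within 150 bp of the summit the shares were 24.0%, 21.6% and 10.3%, and 45.6% among members upstream of a frame. A match is a description of the letters and not of binding.

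Members were denser in deserts than narrow repeat peaks were nearer to genes. Desert territory under the rule made up 563 Mb, or 22.0% of the chromosomes without N bases, and held 5.53 members per Mb (5.34 to 5.73). Intergenic sequence near genes held 4.28 narrow repeat peaks per Mb (4.15 to 4.42), and the inside of genes 2.304 (2.21 to 2.40). The order was the same per soft-masked Mb, at 13.7 (13.2 to 14.2), 10.9 (10.6 to 11.3) and 8.33 (7.99 to 8.68). By distance, the density per soft-masked Mb was 9.30 (8.85 to 9.76) within 50 kb of a TSS and 12.8 (12.2 to 13.3) from 50 to 200 kb. It was then 13.8, 14.2, 13.4 and 13.2 in the bins from 200 to 300 kb, 300 to 500 kb, 500 to 1000 kb and beyond 1000 kb, all with overlapping intervals. The interval at 50 to 200 kb already overlapped with those of the desert bins, narrowly so at 300 to 500 kb, so that no step was resolved at 200 kb. Per Mb of any sequence the density was 4.87 at 50 to 200 kb and 5.26, 5.56, 5.57 and 5.83 in the bins beyond. The median fold was between 5.25 and 5.30 in each of the 4 desert bins.

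Chromosome X held the most members per Mb of desert. Its 283 members gave 7.83 per Mb (6.95 to 8.80), against 5.37 (5.18 to 5.57) on the autosomes. The desert territory of X was also richer in soft-masked sequence, at 52.9% against 39.5%. Per soft-masked Mb the densities were 14.8 (13.1 to 16.6) on X and 13.6 (13.1 to 14.1) on the autosomes, with overlapping intervals. Strength was alike, with median folds of 5.39 and 5.28. Among autosomes, chromosome 5 was highest per soft-masked Mb (16.7, 14.4 to 19.1) and chromosome 14 lowest (10.9, 9.20 to 12.8), and these intervals did not overlap. With 20 chromosomes compared, a pair this far apart was picked as the extremes. Of the desert frames on X, 72.2% (64.4 to 78.9%) of 144 had a peak upstream, against 59.4% (57.0 to 61.7%) of 1617 on autosomes.

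**Figure D5:**
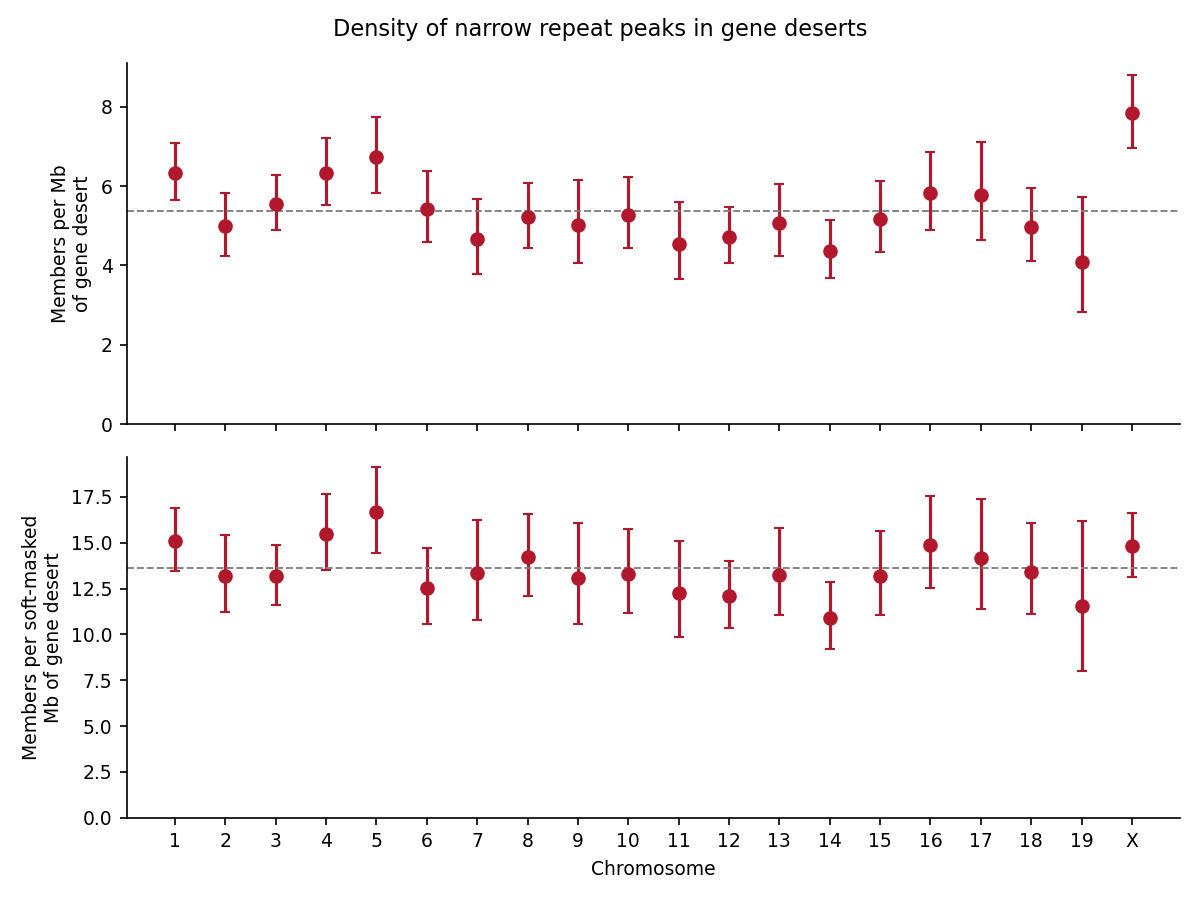
Members per Mb of desert territory (top) and per soft-masked Mb of the same territory (bottom) for each chromosome, with 95% exact Poisson intervals. The dashed line is the autosomal value, 5.37 per Mb and 13.6 per soft-masked Mb. Chromosome X is highest in the top panel, at 7.83, with an interval above the line that overlaps with those of chromosomes 1, 4, 5 and 17. In the bottom panel it stands at 14.8, with an interval over the line.

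The 10 members with the highest −log10 q were all of the largest family, and 9 stood upstream of a long frame. Their folds ranged from 14.8 to 20.8, their fragments from 58 to 71 and their −log10 q from 54.1 to 64.1. The first, chr5:80457372-80457940, lies between Igfbp7, which encodes a secreted binding protein, and Adgrl3, a latrophilin gene, and had a fold of 19.9. The next, chr3:43557716-43558469, and chr3:46198594-46199402 flank Pcdh10 on either side, at 1820 kb and 820 kb, and had folds of 20.8 and 17.5. Others lie at chr16:87149276-87150229 (fold 15.95, between Adamts5 and N6amt1), chr12:65915238-65916111 (16.04, Wdr20rt and Rpl10l) and chr6:15997513-15998449 (15.3, Mdfic and Tfec). The last of the 10 are chr4:82041228-82042164 (14.9, Mpdz and Nfib, inside the lincRNA Gm11264), chr8:65403407-65404403 (14.8, BC030870 and March1) and chr7:56577136-56577896 (16.1, Oca2 and Gabrg3). Tandem units were the rule here: 8 of the 10 had a spacing of 212 bp or its double, and 6 lay 1700 to 1800 bp upstream of their frame. Copies of the summit sequence numbered from 7, at the Oca2 and Gabrg3 member, to 1935.

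Members were spread over 631 of 1039 deserts. Of the 177 deserts of at least 1 Mb, 176 held a member, and they held 1803 members or 57.9% of all. The most members, 31, lay in the desert chr5:58133231-61608816 between Pcdh7 and G6pd2, at 8.92 per Mb (6.06 to 12.7), of which 25 were of the largest family and 12 upstream of a frame. The desert chr1:100485943-104568529 between Cntnap5b and Cdh20 held 30, and chr1:47092852-50700647 between Slc39a10 and Tmeff2 held 27. The deserts chr5:77608041-80820138 between Igfbp7 and Adgrl3 and chr3:10640102-13271655 between Snx16 and Ralyl also held 27 each, the latter at 10.3 per Mb (6.76 to 14.9). Median folds in these 5 deserts were between 4.55 and 5.505. Number and strength of members were not compared over the other deserts. Pcdh7 encodes a protocadherin and Cdh20 a cadherin, both cell adhesion proteins.

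Members lay far from genes and had another member nearby more often than peaks near genes had one of their own class. The median distance to the nearest protein-coding TSS was 471 kb (quartiles 310 and 769 kb), and 473 members, or 15.2%, were at least 1000 kb away. The farthest, chr14:91174463-91175025, stood 2703 kb from Pcdh20 and 2716 kb from Pcdh9, with a fold of 5.81 and its summit 1250 bp upstream of a long frame. The next 3 lie in the same desert at chr14:91125981-91126323, chr14:90974454-90975131 and chr14:90934126-90934349, with folds of 6.97, 7.56 and 5.94, all of the largest family. The fifth, chr1:102195700-102195906 between Cntnap5b and Cdh20, was of the third family and had a fold of 4.85. Another member lay within 10 kb of 726 members, or 23.3% (21.9 to 24.8%), against 19.6% (18.4 to 21.0%) of narrow repeat peaks near genes. Members were also denser in their territory, at 5.53 against 4.28 per Mb, and the part of density in this difference was not tested. Neighbours within 10 kb formed 348 groups, of which 26 held at least 3 members and the largest held 5. Some neighbours stood before the same frame: 114 frames had at least 2 members upstream, 231 members in all.

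The rule kept summits out of protein-coding gene records and out of the promoter windows of all records, and so limited the overlap with annotated transcripts. In all, 233 members, or 7.48% (6.61 to 8.46%), had their summit in a gene record, 184 of them in lincRNA records, 24 in processed transcripts and 10 in antisense records. Near genes, under the same limits, the share was 8.83% (7.96 to 9.79%). The 233 fell in 179 records, 42 of which held at least 2. The processed transcript Gm14643 (chrX:39870500-40475561, plus strand) held the most, with 5 members of folds 4.54 to 6.37, and is named after its count was seen. The nearest TSS of any gene record was at a median of 55.9 kb (quartiles 24.5 and 112 kb).

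The members whose summit occurs once are those whose place is least in doubt. There were 164 of them; 43 were of the largest family, 61 of no family, 10 upstream of a long frame, and 72 passed a q-value of 0.001. Among the strongest by −log10 q, chr15:65415498-65415626 between Gm21961 and Efr3a, had a fold of 10.99 and 15 fragments, was of no family and was 66.7% soft-masked. Another, chr1:141261863-141262581 between Kcnt2 and B3galt2, had a fold of 8.76 and 19 fragments and was of the largest family. These 2 were chosen after their values were seen. Unique members of the largest family show that peaks of this family were also called where reads had a single exact placement over the 50 bp at the summit, although flanking bases of the same peak can still be repeated.

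The limits of the rule cut through a continuum. The members nearest to the 200 kb limit were 200099 and 200218 bp from a TSS, with folds of 5.30 and 6.22, and the peaks just outside were at 199979 and 199932 bp, with folds of 6.24 and 10.5. The widest members measured 998 bp, with folds of 10.2 and 11.3, and the narrowest peaks beyond the limit were 1000 and 1001 bp wide, with folds of 9.01 and 6.01. Members at exactly 50% soft-masked bases had folds of 4.54 and 3.79, as did the peaks just below, at 49.0% and 49.3%.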

How the data were processed

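EHMT2 ChIP-exo was performed in 2 replicates, which the authors concatenated, trimmed and aligned to mm10 with STAR 2.7.10, writing each multi-mapping read once at a random best site. They removed duplicates (Picard 2.26.0) and ENCODE High Signal Regions, and called peaks without a control (MACS2 2.2.6, q-value below 0.05). The deposited list gives start, end and summit, a score (the whole-number part of 10 times −log10 q), the authors' fold (a ratio of pileup plus 1 to background plus 1) and their −log10 p-value and q-value.

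Fragments at the summit were recovered as the whole number that solves both the deposited fold and −log10 p, for 99.99% of 12554 peaks (0.5% after shuffling). Depth is otherwise not given. Sequence and soft-masking came from GRCm38.p6 and genes from GENCODE vM21 (21951 protein-coding records). Exact 50 bp copies were counted on both strands (8 of 8 checked summits equalled a direct search), families were single-linkage groups of minimap2 2.31-r1302 alignments, and long frames ran from stop to stop. Copy counting, pileup recovery and tandem spacing were tested on simulated or directly searched data. Wilson (shares), Newcombe (differences), exact Poisson (densities) and order-statistic (medians) 95% intervals were computed. No p-value was computed, since 1 pooled list has no replicates. Named regions were the 10 members of highest −log10 q, the 5 deserts with most members, the 5 farthest members, the 5 largest families and the peaks at each limit. Of the 10, 1 is not reported here by name. The members and lists were chosen with earlier results of these data known. The alternatives tried changed the q-value, distance, soft-masking, width and each sequence setting.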

Additional observations from a re-analysis of the deposited data

How the results depend on the processing

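Of 84 recomputed values, 43 stayed within the 95% interval of the reported one (for the member count, within 1.5 times) and 41 moved; no direction or call is attached to a value from 1 pooled list, and the cause of a move was not tested beyond what the alternative itself removes. A q-value of 0.01 or lower gave 4.939 members per Mb, a median fold of 5.485, 95.54% repeated summits, 69.77% in the largest family, 33.21% upstream of a long frame and a GC content of 52.1%. At 0.001 or lower these were 3.778, 6.128, 96.62%, 77.68%, 40.18% and 54.13%, and 18.14% had a neighbour within 10 kb. Under a width limit of 500 bp there were 4.218 members per Mb with a median fold of 4.811; 58.63% passed a q-value of 0.001, 93.31% were repeated, 55.89% were in the largest family, 16.92% stood upstream of a frame, the GC content was 47.87% and 21.04% had a neighbour. At 500 kb or more from a TSS, 1445 members remained, 28.58% upstream of a frame, 0.1384% tandem over 1000 bp, 50.8% GC, 21.45% with a neighbour and 5.536% in a gene record. At 80% or more soft-masked, 96.58% were repeated and 67.97% in the largest family. With members less than 10 kb apart reduced to 1, the density was 4.859 per Mb, the median fold 5.422, 70.48% passed 0.001, 64.56% were in the largest family and the GC content was 51.71%. Single settings gave 80.32% repeated with 100 bp at the summit, 64.49% in the largest family when alignments of 250 bp were required, 38.2% upstream of frames of 800 or more codons, 50.53% GC over 250 bp to either side, 18.78% with a neighbour within 5 kb and 15.92% with the most frequent word within 150 bp. The tandem share was 18.68% within 300 bp against 0.417% within 1000 bp; the narrower window was chosen after seeing the data, and the description of units rests on it. No paired analysis was possible because a single list was called on the merged reads, which also leaves no replicate to omit. The median member rests on 9 fragments, which limits the precision of a single fold.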

Other observations

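The 281 broad peaks of the same deserts (1000 bp or wider, median width 1197 bp) had a GC content of 64.9% ± 1.76 (SD over peaks) and 6.16 CpG per 100 bp at the summit. Of these, 79.7% (74.6 to 84.0%, Wilson) had their summit in the 3 kb upstream of a long reading frame. Repeat-poor desert peaks (211) had a GC content of 44.7% ± 7.33, 91.0% of them belonged to no sequence family, and 2 lay upstream of a long frame. A repeated summit was found in 29.4% (23.7 to 35.9%) of them.

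Of the 177 deserts of at least 1 Mb, 1 held no member, and it was 1.55 Mb long.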
